A study of Danio rerio with 12 samples.

Results

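The comparison of lsm8 mutants with wild-type controls takes 6 of the 12 RNA sequencing libraries in a zebrafish series on genes found in screens for T lymphocyte development. The members were chosen by their labels, as the 3 libraries of the genotype lsm8-/- and the 3 libraries of the genotype wt, all from whole embryos. All 3 mutant libraries carry mixed background B, whereas the control libraries carry mixed background A, B and C, 1 library each, so that strain background cannot be told apart from the mutation. Developmental stage, the allele, the number of embryos per library and whether the libraries come from separate clutches are not stated in the sources used here, and the p-values measure only the spread between these libraries.

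The lsm8 product is a subunit of the nuclear LSm2 to LSm8 ring, which binds the 3′ end of U6 snRNA and helps it to enter the U4/U6.U5 tri-snRNP, the particle that carries U6 into the spliceosome. LSm8 sets this ring apart from a cytoplasmic ring that contains LSm1 instead and takes part in mRNA decay. Loss of U6 function is known from yeast to disturb splicing of many introns, so that both the splicing of exons and introns and the RNA levels of genes are of interest in these embryos.

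3 kinds of values were available. Junction reads were counted per library for 23389 skipped-exon events and 741 retained-intron events, and the authors' deposited table listed genes that differed between mutant and wild type. In the skipped-exon table the control libraries held 20118005 to 22999590 junction reads and the mutant libraries 14668691 to 18478988, and in the retained-intron table they held 462622 to 532082 and 332977 to 425613. Every mutant library was thus shallower than every control library. Junction reads of the skipped-exon table were also summed per gene and scaled to a common library size (CPM). These sums serve to compare a gene between libraries but not between genes. They add inclusion and skipping reads without length normalisation, and overlapping events count a read more than once. A sum can therefore also shift when splicing changes. A total of 45 tested exons had no read in 1 library and at least 50 in each of the other libraries, of which 24 lacked reads in the control library in position 2 and 15 in the control library in position 1. None of these 45 exons was among the exons called below, and the cause of the missing reads was not tested.

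Transcripts for parts of the splicing machinery and for snRNA transcription were higher in lsm8 mutants, several genes of the cellular stress response such as mdm2 and ccng1 were higher, and genes of the exocrine pancreas, the intestine and photoreceptors were lower. By summed junction reads, 1169 of 8927 genes tested passed a limma adjusted p of 0.05, which is 13.1% of them. Of these, 462 rose, or 5.18% of the genes tested, and 707 fell, or 7.92%. In 3084 of the 8927 genes, called or not, the mutant and control libraries did not overlap. Scaling by total reads in place of median ratios gave 744 higher and 536 lower, so that the share of higher genes among the calls went from 39.5% to 58.1%. That scaling moved the median log2 fold change of all genes from 0.0085 to 0.11, and the changes below are relative to the median-ratio scaling unless another is named. Leaving out 1 mutant library left 728 to 765 genes called.

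The authors' deposited table listed 851 genes, 427 of them higher and 424 lower. The ratios of p-value to adjusted p-value point to 33737 genes tested, of which the listed genes are 2.52%, the higher ones 1.27% and the lower ones 1.26%. Of the listed genes, 240 also had summed junction reads, and 238 of these had the same direction in both. Both measures come from the same libraries. The 2 others were CU019646.1 and the Sm protein gene SNRPG. SNRPG gave 14.1, 13.3 and 8.53 junction CPM in controls and 35.4, 0.034 and 37.7 in mutants, where the lowest value stands for no read at all in 1 mutant library. In the authors' deposited table SNRPG was higher, at 1.86 (SE 0.17 and limma adjusted p = 0.00754).

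The mutated gene itself had no event in the splicing tables. The authors' deposited table gave lsm8 a log2 fold change of 2.87 (SE 0.10 and limma adjusted p = 0.000602), so that its RNA was higher, not lower, in the mutants. With the allele unknown, this level is no check of the genotype. Its ring partners lsm7 at 2.85 (SE 0.08 and limma adjusted p = 0.000327) and lsm6 at 1.45 (SE 0.08 and limma adjusted p = 0.00173) were also higher there, by the authors' deposited table. By junction reads, lsm4, a subunit of both rings, gave 110.8, 123.8 and 103.8 CPM in controls and 180.5, 191.4 and 181.5 in mutants. All mutant libraries lay above all controls, with a log2 fold change of 0.71 (SE 0.10 and limma adjusted p = 0.00143). The subunit of the cytoplasmic ring lsm1 gave 12.1, 11.2 and 8.43 CPM in controls and 9.27, 10.8 and 10.2 in mutants, and these groups overlapped. Its log2 fold change was −0.053 (SE 0.18 and limma adjusted p = 0.873). None of 5 tested mRNA decapping factors passed the test, nor did any of 11 tested RNA exosome genes. Beside the 13.1% of all tested genes that passed, no call in lists this small does not set them apart. Their medians were 0.25 for decapping factors and 0.033 for exosome genes on the log2 fold change scale. The median of all genes tested was 0.0085.

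Factors that act on U6 snRNA were measured next. The methyltransferase mettl16, which modifies U6, gave 9.28, 11.2 and 10.6 junction CPM in controls and 89.5, 85.1 and 97.8 in mutants. Its log2 fold change was 3.13 (SE 0.12 and limma adjusted p = 3.31e-07). The La protein gene ssb, whose product binds the uridine tail of new U6, gave 146.1, 144.7 and 155.9 in controls and 501.7, 587.5 and 529.6 in mutants. For ssb the log2 fold change was 1.86 (SE 0.09 and limma adjusted p = 1.37e-06). The exonuclease gene usb1, whose product trims the U6 end that the LSm ring binds, rose by 0.90 on the same scale (SE 0.22 and limma adjusted p = 0.0262). In all, 3 of 6 tested U6 factors rose and none fell, beside 5.18% of all tested genes that rose and 7.92% that fell. The genes sart3, larp7 and mepce did not pass the test, with log2 fold changes of 0.51, −0.045 and −0.59. The usb1 call was lost without the control in position 2 or the mutant in position 1 or 3, which left 2 that rose, while 4 rose without the control in position 1. Limma without trend and robust moderation added 1 that fell.

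The snRNA promoter factors held the largest rises among members of the gene lists that passed the test. The TFIIIB subunit brf2, which serves RNA polymerase III promoters of the U6 type, gave 2.21, 2.35 and 2.11 junction CPM in controls. The mutants gave 38.4, 35.7 and 38.6, a log2 fold change of 4.08 (SE 0.15 and limma adjusted p = 2.53e-07). The gene snapc4, which encodes the DNA-binding subunit of the snRNA activating complex, gave 14.4, 21.7 and 14.3 in controls and 239.3, 201.2 and 210.8 in mutants. This was a log2 fold change of 3.72 (SE 0.17 and limma adjusted p = 1.12e-06). In both genes the lowest mutant library lay far above the highest control. The other 5 of 7 tested identifiers of the list did not pass, with snapc1b at −0.090, SNAPC2 at 0.029 and pou2f1b at 0.20. The 2 identifiers named BDP1, a further TFIIIB subunit, stood at 0.40 and 0.34 (limma adjusted p = 0.0708 and 0.156). Of the Integrator complex, which cleaves the 3′ ends of nascent snRNAs, 1 of 9 tested genes passed, beside 13.1% of all genes tested. This was ints10, which fell by 0.98 on the log2 scale (SE 0.27 and limma adjusted p = 0.0419), and its call was lost under scaling by total reads and without the control in position 1 or 2 or the mutant in position 2 or 3. Without the control in position 3, 2 Integrator genes fell.

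Among 8 tested genes of snRNP assembly, beside 13.1% of all genes tested, only uspl1 passed. It encodes a SUMO protease of Cajal bodies, the nuclear bodies where snRNPs mature. Summed reads of uspl1 were 9.65, 8.31 and 6.48 CPM in controls and 78.6, 79.7 and 84.6 in mutants, a log2 fold change of 3.33 (SE 0.15 and limma adjusted p = 9.9e-07). The SMN complex genes smn1 at 0.15, gemin2 at 0.20, gemin5 at −0.22 and gemin8 at 0.19 did not pass. In the authors' deposited table coil, the marker gene of Cajal bodies, was listed at 1.36 (SE 0.16 and limma adjusted p = 0.014) and snupn, the snRNP import adaptor, at 1.09 (SE 0.16 and limma adjusted p = 0.0249).

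**Figure D1:**
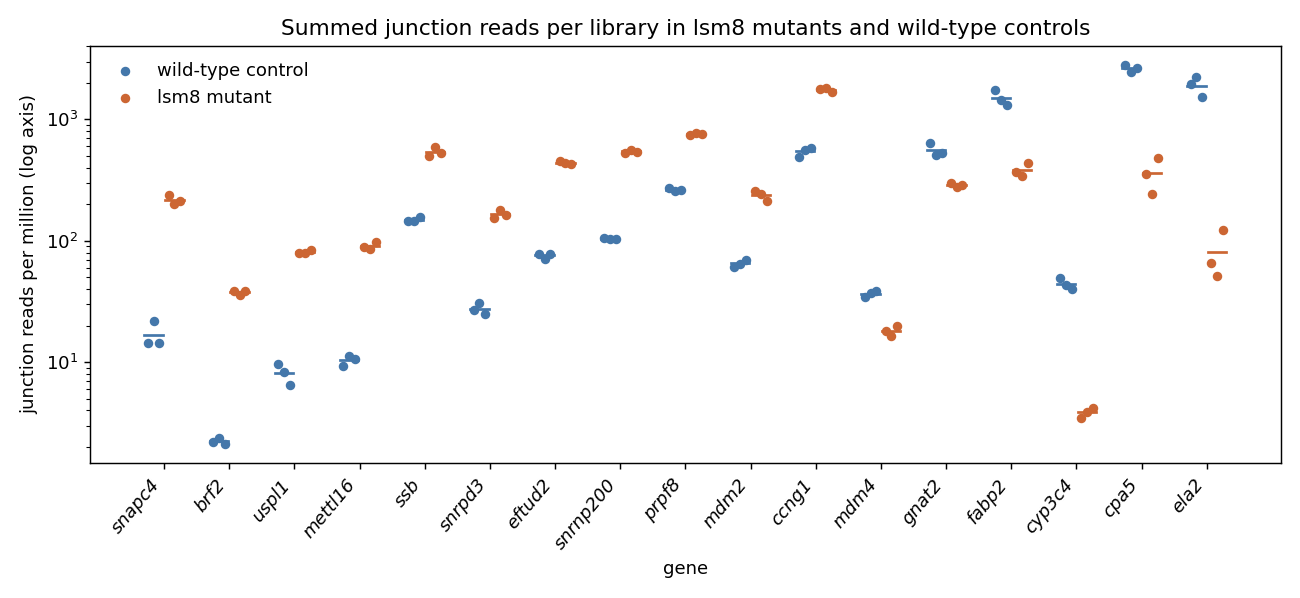
Summed junction reads as CPM (log axis) of 17 genes in 3 wild-type control libraries (blue) and 3 lsm8 mutant libraries (orange), with a line at each group mean. The snRNA promoter genes snapc4 and brf2, the U6, Sm and U5 genes and mdm2 and ccng1 were higher in every mutant library than in any control, and mdm4 and the photoreceptor, intestine and pancreas genes were lower.

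Of 43 tested genes of the core spliceosome lists, 22 rose and none fell, beside 5.18% of all genes that rose. Their median log2 fold change was 0.65, against 0.0085 for all genes tested. Leaving out any 1 library or changing the scaling, the read minimum or the pseudocount left 21 to 23 of them higher and none lower. The authors' deposited table listed 35 identifiers of these lists, all higher. The particles differed in how many of their genes rose, with 3 of 4 tested for the Sm ring, 3 of 4 for the U4/U6 and tri-snRNP list, 5 of 7 for U5, 6 of 13 for U2, 3 of 10 for the Prp19 list and 2 of 5 for U1. These differences between particles were not tested.

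The U5 particle holds the large proteins at the core of the spliceosome. The GTPase gene eftud2 gave 78.0, 71.1 and 78.4 junction CPM in controls and 451, 436 and 431 in mutants, a log2 fold change of 2.54 (SE 0.09 and limma adjusted p = 1.52e-07). The helicase gene snrnp200, whose product unwinds U4 from U6, gave 105.9, 103.5 and 103.3 against 531, 560.4 and 541, a log2 fold change of 2.38 (SE 0.08 and limma adjusted p = 1.52e-07). The scaffold gene prpf8 gave 270.1, 256.8 and 260.8 against 738, 768 and 765, with 1.53 (SE 0.08 and limma adjusted p = 1.9e-06). Control libraries lay within a narrow range in all 3 genes, and no mutant library came near it. PRPF6, which bridges U5 and U4/U6, rose by 1.495 (SE 0.14 and limma adjusted p = 0.000105) and the helicase gene ddx23 by 1.74 (SE 0.21 and limma adjusted p = 0.0013), while txnl4a and snrnp40 at 0.37 and 0.47 did not pass. The tri-snRNP genes snrnp27, sart1 and usp39 rose by 2.03, 1.82 and 1.38 on the log2 scale, whereas ppih at 0.078 did not pass. Further tri-snRNP genes had no tested junction sum but were listed in the authors' deposited table, namely prpf31 at 2.48, prpf4 at 2.48 and 2 identifiers of prpf3 at 2.76 and 2.98. The U4 binding protein gene nhp2l1a was listed there at 2.67.

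Sm proteins form the ring on U1, U2, U4 and U5 snRNA that corresponds to the LSm ring on U6. The gene snrpd3 gave 26.9, 30.9 and 25.02 junction CPM in controls and 155.2, 178 and 162 in mutants, a log2 fold change of 2.58 (SE 0.11 and limma adjusted p = 6.88e-07). Its partners snrpe at 2.16 and snrpd2 at 1.91 also rose, and 7 Sm genes were listed as higher in the authors' deposited table. Among U2 genes the SF3A subunits sf3a2 at 2.00 (SE 0.10 and limma adjusted p = 1.1e-06) and sf3a3 at 1.59 (SE 0.12 and limma adjusted p = 2.87e-05) rose, but sf3b1, the largest SF3B subunit, did not pass at 0.24 (SE 0.10 and limma adjusted p = 0.142). For sf3b3 the junction sum was 50.4, 0.023 and 34.1 in controls and 146.4, 155.2 and 71.9 in mutants, and the control without reads made its fold change unusable. The authors' deposited table listed sf3b3 as higher at 1.02 (SE 0.07 and limma adjusted p = 0.00414), and sf3b2 at 1.13 and sf3b4 at 1.84. The intron-binding helicase gene aqr of the activated spliceosome gave 40.0, 36.1 and 35.3 against 204.8, 171 and 175, a log2 fold change of 2.30 (SE 0.11 and limma adjusted p = 1.07e-06). In the U1 list, the proteins of the particle itself, snrpa at 0.076 and snrpc at 0.055, did not pass, and the 2 genes that rose were the U1-associated factors luc7l at 0.65 (SE 0.11 and limma adjusted p = 0.00394) and prpf39 at 0.53 (SE 0.11 and limma adjusted p = 0.0102).

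Splicing regulators outside the core moved less uniformly. Their counts stand beside 5.18% of all tested genes that rose and 7.92% that fell. Of 22 tested genes for SR proteins and their kinases, 4 rose and 2 fell, with a median log2 fold change of 0.0076. Without the control in position 1 or 3 or the mutant in position 2 or 3, 2 of them rose. The SR-related factor srrm2 rose by 1.22 (SE 0.13 and limma adjusted p = 0.000255) and srsf3a by 0.71 (SE 0.12 and limma adjusted p = 0.00402). The SR protein kinases clk4a and clk2a fell by 0.65 (SE 0.10 and limma adjusted p = 0.00208) and by 0.78 (SE 0.14 and limma adjusted p = 0.0061). Overlapping clk2a exons of 94 and 91 bp were less included in mutants, by 23.2 and 21.3 points (limma adjusted p = 0.07 and 0.0553). How far this lowers the clk2a sum was not tested. Among 24 tested hnRNP genes only hnrnph1l passed, at 0.55 (SE 0.14 and limma adjusted p = 0.03). Its call was lost with limma without trend and robust moderation, with only the event with the most reads, and without any 1 library other than the mutant in position 1. Under scaling by total reads 3 hnRNP genes rose. Of 8 tested genes for nonsense-mediated decay and the exon junction complex, the core exon junction subunits eif4a3 at 0.66 (SE 0.15 and limma adjusted p = 0.0177) and magoh at 0.36 (SE 0.09 and limma adjusted p = 0.0307) rose and none fell. Neither passed with limma without trend and robust moderation, and the magoh call was also lost without any 1 library other than the control in position 1.

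Genes of the response to DNA damage and other cellular stress held both rises and falls. The ubiquitin ligase gene mdm2 gave 61.1, 64.2 and 69.9 junction CPM in controls and 257.9, 243.9 and 212 in mutants, a log2 fold change of 1.87 (SE 0.11 and limma adjusted p = 2.92e-06). The gene ccng1, encoding cyclin G1, gave 492, 564 and 585 against 1778, 1825 and 1683, with 1.69 (SE 0.09 and limma adjusted p = 2.56e-06). Both genes were higher in each mutant library than in any control. The mdm2 relative mdm4 went the other way, with 34.2, 37.1 and 38.6 in controls and 18.2, 16.3 and 19.7 in mutants, and fell by 1.02 on the log2 scale (SE 0.12 and limma adjusted p = 0.000715). An exon of mdm4, described below, was less included in mutants, and how far this lowers the mdm4 sum was not tested. Members that did not pass include the caspase gene casp8 at 0.70 (SE 0.25 and limma adjusted p = 0.102) and sesn1 at −0.32 (SE 0.12 and limma adjusted p = 0.117). Genes without a junction sum were listed as higher in the authors' deposited table, among them the cell cycle inhibitor cdkn1a at 1.62 (SE 0.29 and limma adjusted p = 0.0349) and phlda3 at 1.42 (SE 0.08 and limma adjusted p = 0.0025). The stress gene gadd45ab was listed there as lower, at −1.61 (SE 0.30 and limma adjusted p = 0.0403). None of 17 tested genes of DNA replication and mitosis passed, and of 18 DNA repair genes nbn rose by 0.49 and PRKDC fell by 0.68. These counts stand beside 13.1% of all tested genes that passed. The nbn call was lost with only the event with the most reads, and that of PRKDC under scaling by total reads and without any 1 library other than the control in position 3.

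**Figure D2:**
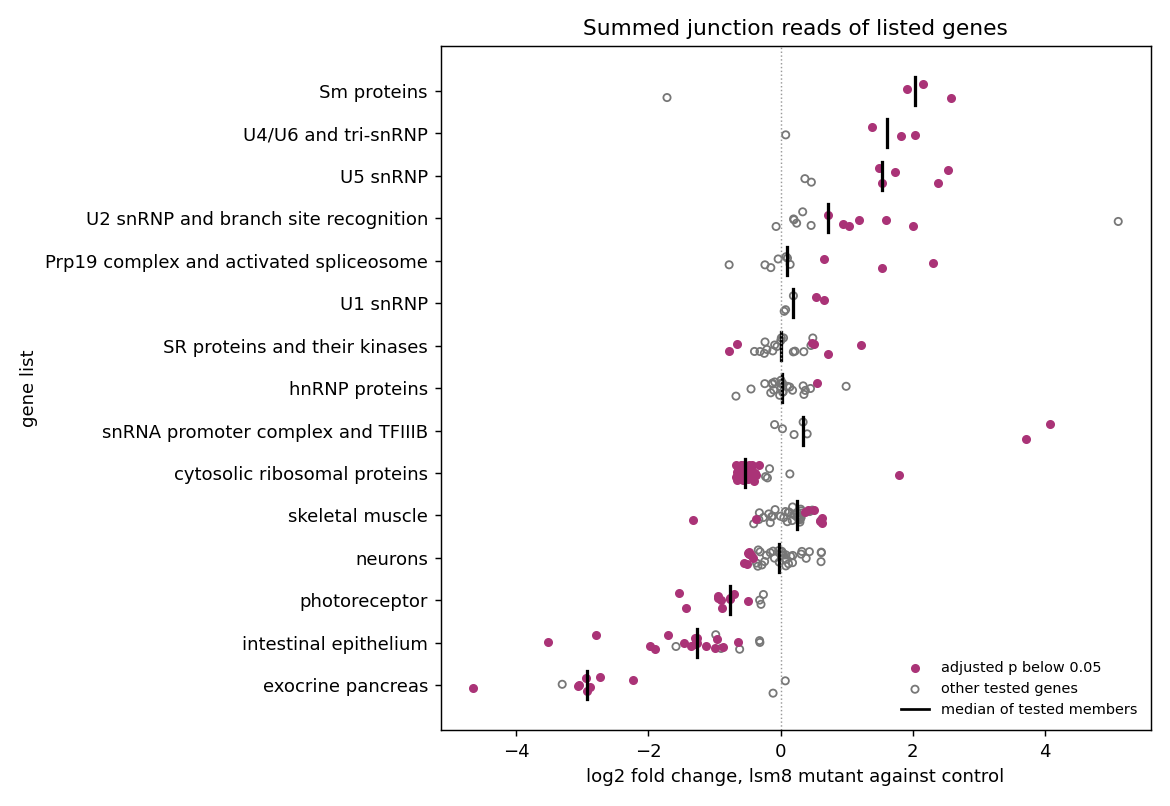
Log2 fold change of summed junction reads (lsm8 mutant against control) of every tested member of 15 gene lists, with filled points for an adjusted p below 0.05, open points for the other genes and a black line at the list median. The list medians lie to the right of 0 at 2.03 for Sm proteins and 1.53 for U5, where the open points at −1.72 (SNRPG) and 5.11 (sf3b3, in the U2 list) come from genes with 1 library without reads. They lie to the left for the pancreas, intestine and photoreceptor lists, at −2.92, −1.26 and −0.77.

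Genes of differentiated digestive tissue and of the retina were lower. In RNA of whole embryos, fewer cells of a type and less RNA per cell cannot be told apart. Of 11 tested genes of the exocrine pancreas 8 fell and none rose, beside 7.92% of all genes that fell, and the median log2 fold change was −2.92. The elastase gene ela2 gave 1945, 2225 and 1532 junction CPM in controls and 66.0, 51.1 and 123.6 in mutants, and fell by 4.65 on the log2 scale (SE 0.37 and limma adjusted p = 0.00218). The carboxypeptidase gene cpa5 gave 2814, 2459 and 2635 against 357, 241 and 483, and fell by 2.92 (SE 0.24 and limma adjusted p = 0.000661). The acinar transcription factor gene rbpjl gave 5.24, 3.75 and 4.30 against 5.53, 3.14 and 3.84, so that its groups overlapped (log2 fold change −0.11, SE 0.27 and limma adjusted p = 0.808). All 14 pancreas genes in the authors' deposited table were lower, with the amylase gene amy2a at −4.37 (SE 0.37 and limma adjusted p = 0.00571) and ctrb1, which encodes a chymotrypsinogen, at −3.35 (SE 0.30 and limma adjusted p = 0.00661).

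Of 22 tested genes of the intestinal epithelium 16 fell and none rose, beside 7.92% of all tested genes that fell. The list median was −1.26, and all 22 had log2 fold changes below 0. The fatty acid binding protein gene fabp2 gave 1761, 1435 and 1323 junction CPM in controls and 367, 344 and 436 in mutants, and fell by 1.98 (SE 0.13 and limma adjusted p = 1.05e-05). The cytochrome P450 gene cyp3c4 gave 48.9, 43.0 and 40.4 against 3.46, 3.88 and 4.20, and fell by 3.52 (SE 0.15 and limma adjusted p = 5.68e-07). Both genes were lower in each mutant library than in any control. Of 13 tested photoreceptor genes 10 fell and none rose, beside the same 7.92% of all tested genes, with a median of −0.77. The cone transducin gene gnat2 gave 636, 512 and 528 against 298, 280.1 and 288, and fell by 0.95 (SE 0.10 and limma adjusted p = 0.000324). The arrestin gene sagb fell by 1.54 (SE 0.22 and limma adjusted p = 0.00493). With plain limma, without its trend and robust options, 7 photoreceptor genes passed. Without the mutant in position 2, 7 fell, and without the mutant in position 1, 8 fell.

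Other tissues gave smaller values. Their counts stand beside 5.18% of all tested genes that rose and 7.92% that fell under the main scaling. Of 42 tested skeletal muscle genes 6 rose and 2 fell, with a median of 0.25, and 20 rose and 1 fell under scaling by total reads. Without the control in position 1, 11 of them rose, and without the control in position 3, 5 rose and 5 fell. Of 37 tested neuronal genes 7 fell and none rose, with a median of −0.021, but under scaling by total reads 1 fell, 1 rose and the median was 0.084. With 1 library left out, 2 to 5 neuronal genes fell, and 3 rose without the control in position 3 and 2 without the mutant in position 2. Among the neuronal genes that fell under the main scaling were grin1b, an NMDA receptor subunit, by 0.50 (SE 0.11 and limma adjusted p = 0.0141) and gad2, a GABA-synthesising enzyme, by 0.48 (SE 0.10 and limma adjusted p = 0.0116). In liver 3 of 19 genes fell and 1 rose, and in cartilage 3 of 19 rose and 1 fell. Under scaling by total reads 1 liver gene fell and 2 rose, 1 fell without the control or the mutant in position 2, and 2 rose without the control in position 1. With limma without trend and robust moderation 1 cartilage gene rose, as it did without the control in position 2 or the mutant in position 1 or 3, and 2 rose without the control in position 3 or the mutant in position 2. None of 34 tested genes of the mitochondrial respiratory chain, 5 lens genes or 3 cardiac genes passed.

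The series was built around T lymphocytes, and few of their genes could be measured by junction reads in whole embryos. Of 6 tested T lymphocyte genes 1 passed, beside 13.1% of all genes tested. This was the transcription factor gene bcl11ba, at 3.48, 2.26 and 3.28 CPM in controls and 6.69, 4.69 and 5.90 in mutants. Its log2 fold change was 0.95 (SE 0.25 and limma adjusted p = 0.0354), and the gene is also active in other tissues such as the nervous system. The call was lost without the control in position 2 or any 1 of the mutants. The recombinase genes rag1 and rag2, which rearrange antigen receptor genes, had no tested junction sum. They were listed as lower in the authors' deposited table, at −2.36 (SE 0.36 and limma adjusted p = 0.0261) and −1.48 (SE 0.26 and limma adjusted p = 0.0361), as was the leukocyte actin regulator coro1a at −1.12 (SE 0.08 and limma adjusted p = 0.00443). The leukocyte genes lcp1 at −1.28 and mfap4 at −2.59, which stand in the myeloid list, were lower there too. Average log2 expression was low for mfap4 and rag2, at −1.18 and −1.47, against 1.21 for rag1, 2.44 for lcp1 and 2.88 for coro1a.

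Cytosolic ribosomal protein genes formed a tight group. Of 58 tested identifiers 53 fell and 1 rose, beside 7.92% of all tested genes that fell and 5.18% that rose. The median log2 fold change was −0.54, with values between −0.67 and 1.78. The gene rps7 gave 5351, 4942 and 4428 junction CPM in controls and 3069, 3206 and 2977 in mutants, and fell by 0.67 (SE 0.09 and limma adjusted p = 0.00155). Under scaling by total reads 52 fell, 2 rose and the median was −0.44. With plain limma 45 fell. Without the mutant in position 1 or 3, 46 and 44 fell, and without the control in position 1 or 2, 50 and 48. The identifier that rose is named rps27.2 and gave 71.5, 46.4 and 52.3 against 182, 179 and 217. A second identifier of the same name fell by 0.41, and how the authors' counting split reads between these copies is not stated in the sources used here. No ribosomal protein gene stood as lower in the authors' deposited table, which lists only fold changes of at least 1 on the log2 scale. Heat shock genes did not move as a group, with hspa4b higher by 0.93 and hsp90ab1 and calr lower by 0.59 each among 11 tested. These calls stand beside the same 5.18% of all tested genes that rose and 7.92% that fell. In the authors' deposited table the heat shock gene hsp90aa1.1 was listed as higher, at 1.18 (SE 0.13 and limma adjusted p = 0.0128).

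Many of the extremes by junction reads belong to these groups. The groups were chosen with earlier results of these data known, so this is a description and not a separate result. Among the 10 highest of the genes that passed the test with at least 200 reads were brf2, snapc4, uspl1, mettl16, RNF14, supt7l, snrpd3, eftud2 and snrnp200. Of these, RNF14 stood at 3.05 (SE 0.22 and limma adjusted p = 2.21e-05) and supt7l, which encodes a subunit of the SAGA coactivator, at 2.77 (SE 0.16 and limma adjusted p = 2.9e-06). The 10 lowest that passed were ela2, zgc:66382, cyp3a65, cyp3c4, APOD, zgc:112146, try, cpa1, cpa4 and cpb1, from −4.65 to −2.95.

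The highest entries of the authors' deposited table rested on fewer reads. Of its 10 highest entries with a symbol, all but 2 averaged less than 0 on the log2 expression scale. In the authors' deposited table, an identifier named U6 stood at 5.76 (SE 0.49 and limma adjusted p = 0.00576) with an average log2 expression of −2.30. Of 36 listed 5S_rRNA identifiers 35 were higher there, with averages of at most −2.19, and 30 listed identifiers shared all their values with another one. The authors' deposited table also had the small RNA genes U8 at 2.75 and SNORA68 at 4.57, both named here after their values were seen. Such RNAs come in many copies, and reads from copies may not be assigned to the right one. Among the 10 lowest entries were the pancreatic genes CELA1 (7 of 7) at −5.81, ela2 at −4.64 and the astacin protease gene c6ast4 at −4.37 in the authors' deposited table. Average log2 expression of these 3 entries was −1.27, 6.98 and 4.97, so the lowest entries included well expressed genes.

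Exon skipping was more frequent in the mutants over a wide set of exons and large in few of them. Inclusion is the share of length-normalised junction reads that include the exon. Of 22499 exons tested, 260 passed a limma adjusted p of 0.05 with a difference of at least 10 points, which is 1.16%. Among them 239 were less included in mutants, or 1.06% of those tested, and 21 more included, or 0.0933%. Without the minimum difference, 915 were less and 53 more included. Leaving out 1 library gave 148 to 417 exons. The lowest count arose without the mutant library in position 1, and the highest without the control library in position 3.

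Skipping reads were spread over many more exons in mutant libraries. Between 29.3% and 33.6% of tested exons had at least 1 skipping read in a control library, and 43.2% to 50.2% in a mutant library, although the mutant libraries were shallower. The exact two-sided permutation test over libraries gave p = 0.1, the smallest that 3 against 3 can give. This was not particular to lsm8 mutants. Over all events of its own table, snapc3 mutants had a skipping read in 9675 to 11748 events, against 6839 to 7749 in controls. For tnpo3 mutants these numbers were 13693 to 13902 against 6903 to 7860. In the lsm8 comparison, no control library had a skipping read in 45.3% of tested exons, and no mutant library had one in 19.7%. Mean inclusion over tested exons was 92.35%, 92.37% and 92.38% in controls and 91.16%, 91.17% and 91.11% in mutants. The groups did not overlap, and the mutant mean was 1.22 points lower (exact permutation p = 0.1). When reads were pooled over exons before the share was taken, which gives weight to abundant transcripts, the mutants were 0.29 points lower (exact permutation p = 0.1). Of all tested exons 67.8% had a lower mean inclusion in mutants, and the median difference was −0.39 points. An exon was tested if it had at least 1 skipping read over the 6 libraries. The 45.3% without one in controls could therefore only be lower in mutants, and the 19.7% without one in mutants only higher. For these exons the filter fixed the direction, so the 67.8% is a description and not a separate result.

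The 239 exons called lower lay in 223 genes. Their differences ran from −77.5 to −10.03 points, with a median of −18.02 points. Their median length was 96 bp, against 108 bp over tested exons, and 50.2% had a length divisible by 3, against 48.8%. In 19.7% of them a neighbouring intron was at most 100 bp long, against 13.9% of tested exons, and 8.37% of them were at least 300 bp long, against 4.72%. Their median coverage was 89.5 reads per library, against 162.5, and 80.8% had a control inclusion of at least 95%, against 83.3%. These shares are descriptions without a test.

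**Figure D3:**
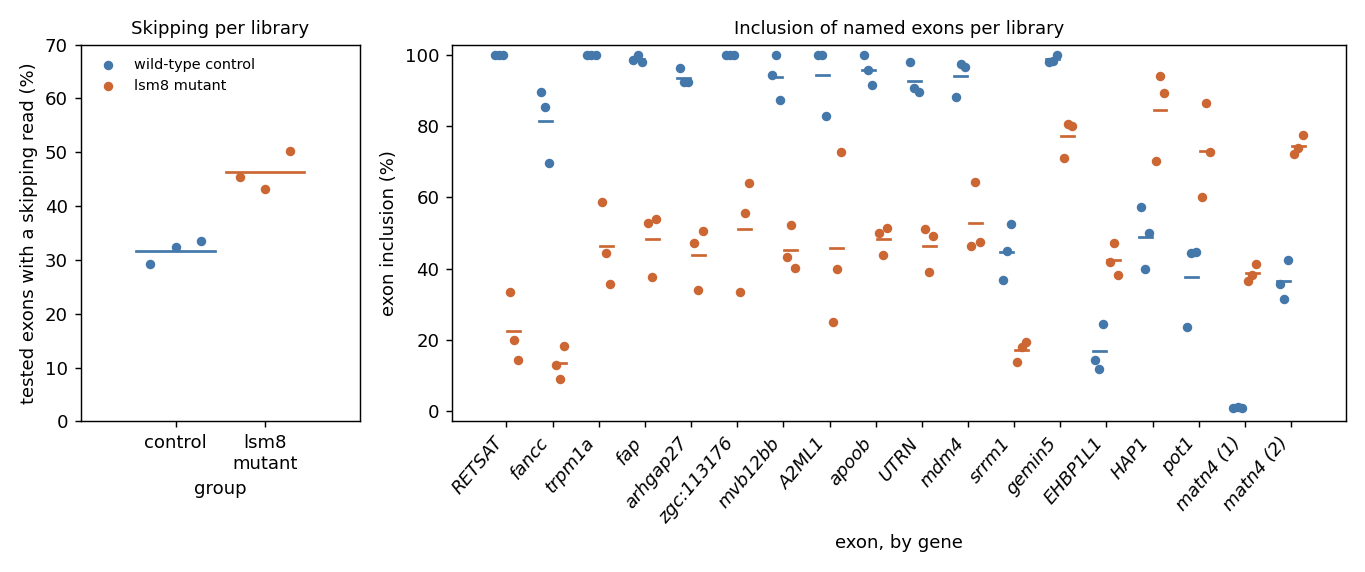
Left, the percentage of tested exons with at least 1 skipping read in each library (29.3% to 33.6% in controls, 43.2% to 50.2% in mutants). Right, inclusion (%) of 18 named exons in each library, each in the event given in the text, with lines at group means, where the exons of matn4 are the 123 bp exon that starts further downstream (1) and the one that starts further upstream (2).

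Each inclusion value belongs to 1 event, an exon with 1 pair of flanking exons, and other events of the same exon can differ. Among events with at least 20 reads per library, large falls came in genes of different functions. An exon of 73 bp in fap, which encodes a serine protease of activated fibroblasts (chr9:52604881-52604953 in Zv9), was included at 98.7%, 100% and 98.0% in controls and 52.8%, 37.7% and 54.1% in mutants (limma adjusted p = 8.3e-05). A 66 bp exon of UTRN, encoding the dystrophin relative utrophin (chr23:1408011-1408076), went from 98.1%, 90.8% and 89.6% to 51.2%, 39.0% and 49.3% (limma adjusted p = 0.000849). A 101 bp exon of trpm1a, a cation channel of the retina and pigment cells (chr7:30671118-30671218), went from 100% in each control to 58.8%, 44.4% and 35.7% (limma adjusted p = 6.7e-05). In each of these exons the groups were far apart, but the exons were picked as large falls among called ones, which favours such a separation. Groups did not overlap in 92.9% of the exons called lower, against 9.67% of all tested exons. Upstream of the 73 bp exon of fap, a 59 bp exon (chr9:52604741-52604799) was called as more included (limma adjusted p = 0.000667). It had 3, 0 and 3 inclusion reads in controls and 37, 52 and 30 in mutants. The Fanconi anaemia gene fancc lost a 108 bp exon (chr8:30982200-30982307) from 89.6%, 85.5% and 69.6% to 12.9%, 8.95% and 18.3%, with 24.2 reads per library. The exon with the widest fall lay in RETSAT, an enzyme gene of retinol metabolism, from 100% in each control to 33.3%, 20% and 14.3%. It rested on 20.3 reads per library, with 1 to 2 inclusion reads in each mutant library, and the deposited FDR of the authors for it was 1. The other named falls, in arhgap27, zgc:113176, mvb12bb, A2ML1 and apoob, lay between −49.9 and −47.5 points.

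Skipped exons called in genes of the stress response and of splicing were few, as they were over all tested exons, of which 1.16% were called. In mdm4 a 65 bp exon (chr11:23843914-23843978) was included at 88.4%, 97.5% and 96.7% in controls and 46.5%, 64.3% and 47.5% in mutants, a difference of −41.4 points (limma adjusted p = 0.00111). Its length is not a multiple of 3. The other tested mdm4 exon, of 75 bp, stayed between 98.7% and 100% in all libraries. In srrm1, a coactivator of splicing, a 126 bp exon (chr17:25270272-25270397) went from 36.8%, 44.8% and 52.4% to 13.8%, 18% and 19.2%, a difference of −27.7 points (limma adjusted p = 0.0282), and this call was lost in 6 of the alternatives run. In gemin5, the snRNA-binding subunit of the SMN complex, a 137 bp exon (chr21:35733028-35733164) went from 98.2%, 98.3% and 100% to 71.1%, 80.7% and 80.0%, or −21.6 points (limma adjusted p = 0.00513). The T lymphocyte list held 1 call, in 1 of 3 tested events of a 108 bp exon of the transcription factor gene tox, from 100% in each control to 96.5%, 91.4% and 78.2%. In a better covered event of this exon, with 174.8 reads per library, inclusion was 100% in each control and 98.9%, 98.4% and 98.3% in mutants and did not pass (limma adjusted p = 0.195). The mutant library at 78.2% held 12 skipping reads of the called event, against 1 and 3 in the other mutant libraries, and the call (limma adjusted p = 0.0449) was lost in 8 of the alternatives run. None of the tested exons in genes of the core spliceosome lists was called. With so low a share called over all exons, this does not set these genes apart.

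Rises in inclusion were rarer. In matn4, which encodes the cartilage matrix protein matrilin 4, 1 of 8 tested events of a 123 bp exon (chr6:52775051-52775173) gave an inclusion of 0.92%, 1.08% and 0.84% in controls and 36.6%, 38.3% and 41.3% in mutants (limma adjusted p = 4e-06). Likewise 1 of 8 tested events of another 123 bp exon of matn4 (chr6:52771744-52771866) went from 35.7%, 31.3% and 42.4% to 72.3%, 74.0% and 77.5% (limma adjusted p = 0.0101). Both events use the same skipping reads, so they are not independent. None of the other events of these exons passed. With other flanking exons the first exon was included at 79.8%, 71.6% and 78.0% in controls and 58.1%, 64.2% and 59.7% in mutants (limma adjusted p = 0.348), on 740.7 reads per library. The second was at 98.8%, 100% and 99.8% against 97.7%, 98.8% and 99.2% in an event with 907.8 reads per library (limma adjusted p = 0.228). The values of these exons therefore differ with the flanking exons of the event. Of 10 tested events of a matn4 exon further downstream (chr6:52777559-52777681), 3 had a limma adjusted p below 0.05, in different directions. Only the one with 658.5 reads per library also met the minimum difference of 10 points. It fell from 100%, 99.8% and 100% to 87.2%, 89.0% and 90.1% (limma adjusted p = 0.000162). Those with 85.8 and 68.2 reads rose by 1.97 and 7.62 points (limma adjusted p = 0.0388 and 0.00115). Events in pot1, a telomere protein gene, and HAP1 rose by 35.6 points each and 1 of a 3144 bp exon of EHBP1L1 by 25.6 points, on 29.3 to 34.0 reads per library.

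Introns were retained more often in the mutants. Of 677 introns tested, 11 passed the same criteria, or 1.62%, with 9 more retained, or 1.33%, and 2 less retained, or 0.295%. These calls depended on every library, since leaving out any 1 of the 6 left 0 to 2 of them, and requiring no read minimum left 0. At an unadjusted limma p below 0.05 there were 155 introns. Mean retention per library was 37.6%, 37.8% and 38.9% in controls and 41.2%, 40.9% and 40.5% in mutants, a difference of 2.80 points (exact two-sided permutation p = 0.1, the smallest possible). Of the 677 introns, 487 or 71.9% had a higher mean in mutants, and in 174 every mutant library lay above every control, against 26 the other way.

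The shortest introns had the largest median difference. The 237 introns of at most 85 bp had a median difference of 2.55 points, and 75.5% of them were more retained. In the 114 introns of 86 to 100 bp these values were 1.87 points and 81.6%. The 172 introns of 101 to 200 bp had 0.64 points and 68.0%, and the 104 introns of 201 to 500 bp 0.78 points and 63.5%. Over 500 bp, the 50 introns had a median difference of 1.35 points but a mean of −1.99 points. The order of the length classes was not tested.

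**Figure D4:**
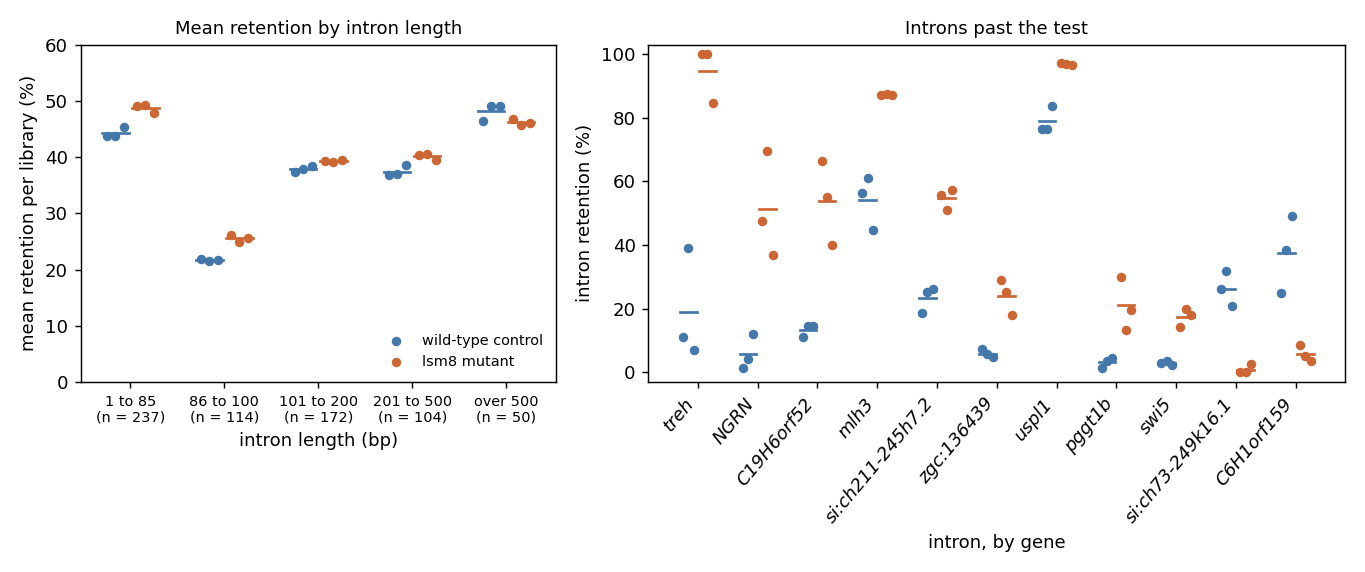
Left, mean retention (%) per library in 5 classes of intron length, with the number of introns below each class. Right, retention (%) per library of the 11 introns past the test, with lines at group means. Mutant libraries lie above controls in the 4 classes up to 500 bp, with a median difference of 2.55 points in the shortest class, and in 9 of the 11 single introns.

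The intron with the most reads among those that passed lay in uspl1. This 284 bp intron (chr10:37685364-37685647 in Zv9) was retained at 76.4%, 76.5% and 83.8% in controls and 97.3%, 96.9% and 96.6% in mutants (limma adjusted p = 0.038). Reads of the retained form numbered 110, 130 and 124 in controls and 1092, 1064 and 1544 in mutants, while reads of the spliced form numbered 17, 20 and 12 against 15, 17 and 27. These reads are not scaled for depth, which was lower in the mutants. In mlh3, a mismatch repair gene, an 81 bp intron (chr23:24879352-24879432) went from 56.5%, 61.0% and 44.7% to 87.3%, 87.5% and 87.2% (limma adjusted p = 0.0459). In treh, encoding the intestinal enzyme trehalase, an 86 bp intron (chr18:42266989-42267074) went from 11.1%, 39.1% and 6.98% to 100%, 100% and 84.6%, on 18.3 reads per library (limma adjusted p = 0.0459). A 66 bp intron of NGRN went from 1.39%, 4.28% and 11.9% to 47.6%, 69.6% and 37.0%, and a 72 bp intron of C19H6orf52 from 11.0%, 14.5% and 14.5% to 66.3%, 55.0% and 40.0%. Groups did not overlap in any of the 11 introns, which were picked by a test that favours such a separation. Over all 677 tested introns, every mutant library lay above every control in 25.7% and below in 3.84%. Further rises came in zgc:136439, pggt1b, which encodes a subunit of a protein prenyltransferase, swi5, a recombination factor gene, and si:ch211-245h7.2, by 14.5 to 31.4 points. Retention fell in a 716 bp intron of C6H1orf159 by 31.6 points and in a 242 bp intron of si:ch73-249k16.1 by 25.4 points.

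None of the tested introns in genes of the splicing machinery was called, beside 1.62% of all tested introns. With so low a share over all introns, this does not set these genes apart. A 124 bp intron of sf3a1 was retained at 0.80%, 0.97% and 1.39% in controls and 7.49%, 13.98% and 8.10% in mutants (limma adjusted p = 0.038), a difference under 10 points, and a 91 bp intron of sf3a2 at 1.28%, 1.099% and 1.37% against 3.82%, 3.53% and 3.62% (limma adjusted p = 0.0749). Groups did not overlap in either intron, and every mutant library lay above every control in 25.7% of all tested introns. A 367 bp intron of prpf39 was retained less, at 20.8%, 24.3% and 22.7% against 13.2%, 8.26% and 12.5%, without passing the test (limma adjusted p = 0.111). Shorter prpf39 introns of 133 and 116 bp, which form the ends of this interval, went the other way. Their mean retention was higher in mutants by 5.99 and 6.92 points, with overlapping groups (limma adjusted p = 0.544 and 0.489). The values for prpf39 thus differ with the event. Of 13 tested introns in ribosomal protein genes, 12 were retained below 3% in every library. Among them an 85 bp intron of rps4x was retained at 0.16%, 0.12% and 0.11% in controls and 0.49%, 0.60% and 0.46% in mutants (limma adjusted p = 0.0466). The remaining one, an 87 bp intron of rpl10a, stood at 66.5%, 51.5% and 62.2% against 80.9%, 70.9% and 69.6% (limma adjusted p = 0.261). It lies within a 388 bp intron of rpl10a that was retained at 1.55%, 1.31% and 1.78% in controls and 2.28%, 2.51% and 2.46% in mutants. Spliced reads in controls numbered 94, 126 and 121 for the 87 bp intron and 14565, 17254 and 14995 for the 388 bp one. The high retention therefore concerns a small part of the rpl10a junction reads.

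The rise in retention was also seen beside the other mutants of the series. Over 646 introns tested in all 3 tables, mean retention was 39.5%, 39.3% and 38.9% in lsm8 mutants, 35.7%, 36.2% and 36.1% in snapc3 mutants and 35.7%, 35.0% and 35.9% in tnpo3 mutants. Every lsm8 mutant library lay above every library of the other mutants. Strain background was not taken into account in this contrast, and that of the snapc3 and tnpo3 libraries is not given here. The lsm8 mean was 3.24 points above that of snapc3 mutants and 3.69 points above that of tnpo3 mutants, each with an exact two-sided permutation p of 0.1 and an adjusted p of 0.1 over the 2 comparisons, the smallest that 3 against 3 libraries allow. Controls averaged 36.3% ± 0.71 (SD, n = 3) over the same introns.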

How the data were processed

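Per the labels' protocols, total RNA was made into stranded libraries after ribosomal RNA removal. Per the submitters' processing notes, the tools were limma 3.26.3, featureCounts 1.4.5-p1, Bowtie2 2.2.3 and TopHat2 2.0.13, with genome build Zv9. No source used here names the splicing tool. The authors deposited, per gene, a log2 fold change and average log2 expression, a moderated statistic used here as a score, and a p-value and adjusted p-value, for genes past an adjusted p of 0.05 and an absolute log2 fold change of 1. SE is the deposited fold change divided by that statistic. The authors' splicing tables hold counts of inclusion and skipping reads for 3 libraries in a cell, with form lengths and a deposited p-value and FDR. Control counts were identical in all events shared with the tables of the other mutants, which identified the control columns. Positions within a cell could not be tied to replicate numbers.

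Inclusion and skipping reads were divided by their form lengths, and log2 of their ratio (pseudocount 0.5) was tested in R 4.3.3 with limma 3.58.1, using its trend and robust options and Benjamini-Hochberg adjustment. Events averaging fewer than 10 reads, or lacking 1 of the forms in all libraries, were left out. Genes were tested likewise on log2 junction CPM with median-ratio scaling, a pseudocount of 0.5 and a mean of at least 50 reads. Counting depth limits single exons and introns more than genes. Means per library were compared with exact permutation tests in SciPy 1.17.1. The scripts were tested on simulated data. A gene of the stress response and the counts of its list are not reported here. Members and gene lists were chosen with earlier results of these data known. Named genes are lsm8, the 10 highest and 10 lowest of each gene table, every listed or called member of the LSm, U6, snRNA promoter and T lymphocyte lists and up to 4 members of each other list. For lists not called, members are given as values. Further members of the lists, most of them short of the test, and the prpf39 and rpl10a introns were added after their values were seen. So were the clk2a exons and the 59 bp exon of fap. Named exons are the 10 largest falls and 5 largest rises with at least 20 reads and calls in genes of RNA processing, stress response, DNA repair and T lymphocytes. Alternatives were other read minimums, pseudocounts, scalings and differences, the deposited FDR, plain limma and each library left out.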

Additional observations from a re-analysis of the deposited data

How the results depend on the processing

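The count of skipped exons was 968 with no minimum difference, 120 with a minimum of 20 points and 474 with the deposited FDR, and 148 to 417 with 1 library left out. The count of retained introns was 0 with no read minimum (150 at an unadjusted limma p below 0.05), 20 with a pseudocount of 2, 21 with no minimum difference, 7 with a minimum of 20 points and 70 with the deposited FDR, and 0 to 2 with 1 library left out. The count of genes by junction reads was 319 when an absolute log2 change of 1 was also required, and 728 to 1257 with 1 library left out, of which 728, 765 and 748 without the mutant in position 1, 2 and 3. The other alternatives for these counts stayed within 1.5 times, and mean retention and mean inclusion kept their direction under every alternative run. The log2 fold change of lsm1 reversed to 0.051 with total scaling, to 0.051 without the control in position 1 and to 0.0072 without the mutant in position 1, none past the test. Over all values of single genes, exons and introns and all alternatives, 1247 kept direction and side of the threshold, 187 lost the call and 3 reversed. Causes of these shifts were not tested. No paired analysis was possible because the columns carry no replicate numbers. Low counts limit most single introns and the exons near 20 reads.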
